A study of Mus musculus with 20 samples.

Results

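Fenofibrate was fed for 8 weeks to mice with the MuRF1 gene (MuRF1 +/+) and to mice without it (MuRF1 -/-), and the question addressed here was where the hearts of the 2 genotypes responded differently. For each gene, the change from chow to fenofibrate in MuRF1 +/+ hearts was subtracted from the same change in MuRF1 -/- hearts, on the log2 scale of the ratio of heart RNA to a common reference RNA. A positive difference means a response that was higher in MuRF1 -/- hearts, and a negative difference one that was lower there. The comparison used 12 of the 20 hearts of the series, 3 in each of 4 groups: MuRF1 +/+ CHOW, MuRF1 +/+ 8WK FENO, MuRF1 -/- CHOW and MuRF1 -/- 8WK FENO. The fenofibrate groups received 0.05% of the drug by weight in chow, and the chow groups received chow alone for the same 8 weeks. The series text calls the hearts biological replicates with 1 array each and the mice strain-matched, and gives 3-8 weeks as their age. Strain, sex and litter of the hearts are not given in the sources used here, nor which part of the gene was removed. The other 8 hearts, 4 of each genotype after 3 weeks of fenofibrate, entered only through the estimate of each gene's spread. Of 27670 genes named on the array, 14556 had a heart signal well above background on 3 or more arrays, and all of these were tested.

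MuRF1, encoded by Trim63, is a ubiquitin ligase of striated muscle that sits at the sarcomere, marks muscle proteins for the proteasome and is best known for its part in muscle atrophy. Fenofibrate activates PPAR alpha, a nuclear receptor that binds DNA with RXR and turns on genes of fatty acid uptake and oxidation, a main fuel route of the heart. Pdk4, which holds back glucose oxidation, and Angptl4 are among its classical targets.

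The reference was a pool of whole newborn pups and carried Cy3 on every array, while the hearts carried Cy5. Trim63 gave log2 ratios of 2.59, 2.38 and 2.49 in the MuRF1 +/+ CHOW hearts and of 2.85, 0.79 and 2.41 in the MuRF1 +/+ 8WK FENO hearts, against -0.97, -0.96 and -1.11 and -0.95, -0.98 and -1.0 in the MuRF1 -/- groups, which matched the genotype labels. Transcripts that define heart muscle were present: Myh6, Tnnt2, Tnni3, Myl2, Myl3 and Mybpc3 were well above background in 12 of 12 hearts, and Ryr2 in 10. Replicate 2 of the MuRF1 +/+ 8WK FENO group stood apart from the others. On a first principal component with 53.7% of the variance it lay at 57.6, and the other 11 hearts between -16.8 and 15.5. Its array and that of replicate 3 of the same group had the smallest shares of heart probes above background (34.0% and 36.9%, against 38.8% to 44.2% for the other 10). They also had the narrowest spread of log2 ratios over the tested genes, with SDs of 0.79 and 0.82 against 0.85 to 0.99. The Y-linked transcripts Ddx3y and Eif2s3y were well above background in all 6 chow hearts, in 0 of 3 MuRF1 +/+ 8WK FENO hearts and in 2 of 3 MuRF1 -/- 8WK FENO hearts, the exception being replicate 2. Results that rest on these arrays are given below with and without them. The MuRF1 +/+ response thus compared chow hearts with Y-linked signal and fenofibrate hearts without it. In that genotype fenofibrate and the Y-linked difference cannot be told apart. How far array spread and the Y-linked difference enter the other results was not tested beyond the values given with them.

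After 8 weeks of fenofibrate more genes passed the test in MuRF1 +/+ than in MuRF1 -/- hearts, but for a single gene did the difference between the responses itself pass. In MuRF1 +/+ hearts 2035 genes (14% of those tested) changed after 8 weeks at an adjusted p under 0.05, of which 766 rose and 1269 fell. In MuRF1 -/- hearts 267 genes (1.83%) changed, 124 up and 143 down. These 2 counts do not test the difference between the genotypes. The MuRF1 +/+ count also cannot tell fenofibrate from the Y-linked difference. In the test of the difference itself, 1 gene of 14556 (0.00687%), Arhgef19, passed after adjustment. The test used the brightest probe of each gene, and when all probes were fitted the other probe of Ndrg4 had an adjusted p of 0.0214. At an unadjusted p under 0.05 there were 2446 genes (16.8%), with a higher response in MuRF1 -/- hearts for 1277 (8.77%) and a lower one for 1169 (8.03%). At an unadjusted p under 0.01 there were 648 genes (4.45%), of which 384 (2.64%) were higher and 264 (1.81%) lower. That split depended on the normalization: Agilent's deposited log ratio gave 311 higher and 384 lower, and the heart channel alone gave 424 and 186. All p-values of single genes come from limma, with Benjamini-Hochberg adjustment over the 14556 genes.

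**Figure D1:**
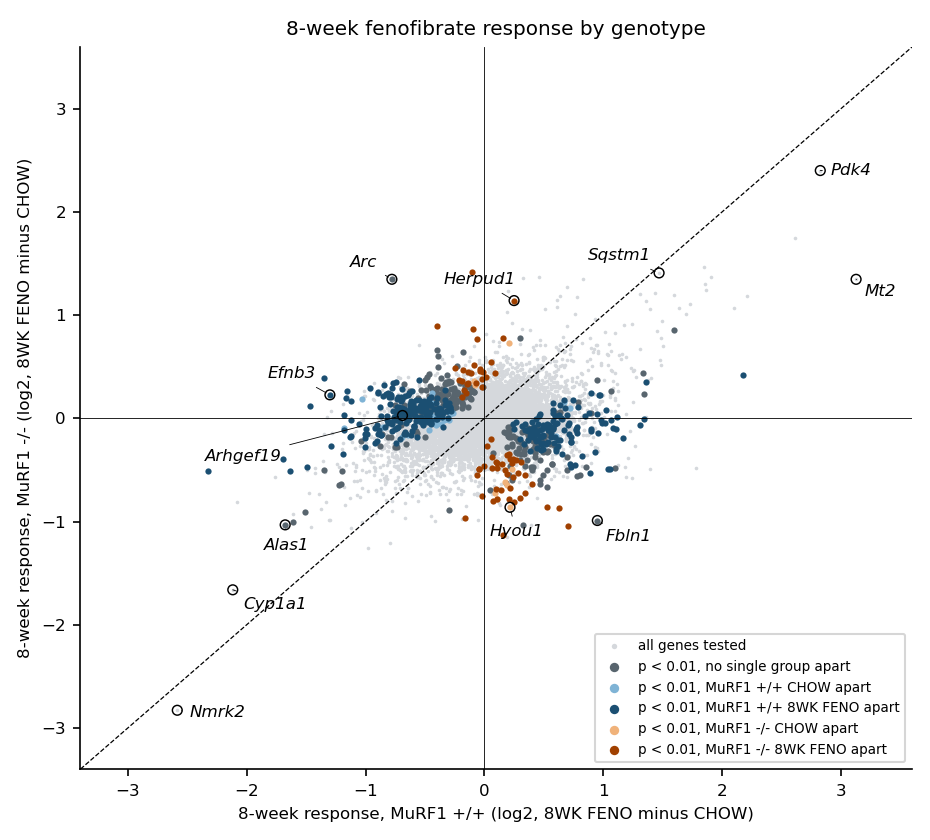
Each point is a gene, with its 8-week response in MuRF1 +/+ hearts on the x axis and in MuRF1 -/- hearts on the y axis, both as log2 differences between group means. Grey points are all 14556 genes tested, coloured points the 648 at an unadjusted p under 0.01 for the difference, by the group whose mean stood apart, and the dashed line marks equal responses. Most coloured points spread along the x axis, while Pdk4, Sqstm1, Cyp1a1 and Nmrk2 lie far out near the dashed line.

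Among the 648 genes, chosen by that p alone, the MuRF1 +/+ response was the larger of the 2 in size for 509 (78.5%, against 68.7% of all genes tested). It passed adjustment on its own for 401, and the MuRF1 -/- response for 43. Both passed for 7 genes, always in the same direction, and for 0 genes in opposite directions. The point estimates of the 2 responses had opposite signs for 504 (77.8%, against 44.2% of all). The gap between genotypes had opposite signs on chow and after 8 weeks for 627 (96.8%, against 63.9% of all), and it passed adjustment on chow for 7 and after 8 weeks for 6. A choice by a large difference raises these 3 shares by itself, so nothing is read from them. Across all tested genes it passed for 13 (0.0893%) on chow and for 13 (0.0893%) after 8 weeks.

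To show which group carried each difference, a group was said to stand apart when the gap from its mean to the nearest of the other 3 means exceeded the range of those 3. By that description MuRF1 +/+ 8WK FENO stood apart for 316 of the 648 genes (48.8%), against 34.1% of all genes tested. MuRF1 -/- 8WK FENO stood apart for 67 (10.3%, as among all genes tested at 10.3%), MuRF1 +/+ CHOW for 29 (4.48% against 7.73%) and MuRF1 -/- CHOW for 9 (1.39% against 5.13%). For the remaining 227 genes (35.0% against 42.8%) no single group did. The 3 hearts of the group lay beyond the other 9 for 135 of the 316, 59 of the 67, 25 of the 29 and 2 of the 9. The same was true of 4.77%, 2.15%, 1.16% and 0.515% of all genes tested (695, 313, 169 and 75 of 14556). Over all genes tested these groups stood apart for 4965, 1496, 1125 and 747 genes in that order. The percentages divide by all genes tested, and the counts before them by genes for which the group stood apart. They are therefore not a like comparison. MuRF1 +/+ 8WK FENO had the highest mean for 122 of the 316 genes and the lowest for 194.

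The share carried by MuRF1 +/+ 8WK FENO moved with its arrays. For the settings below, the share over all genes tested for which this group stood apart is not given here. None of these shares is therefore read as above or below that background. It was 29.2% of 342 genes without replicate 2, 76.0% of 2158 without replicate 1 and 61.2% of 774 without replicate 3. It was 27.7% of 621 genes without replicate 2 of the MuRF1 -/- CHOW group. It was 21.4% when no spot was kept out of the background fit and 18.7% with the authors' series matrix. Of the 316 genes, 268 (84.8%) had a MuRF1 +/+ 8WK FENO mean nearer to 0, the level of the reference, than the mean of the other 3 groups, against 68.6% of all genes tested. With each array's log ratios scaled to the same SD, MuRF1 +/+ 8WK FENO stood apart for 230 genes (43.6%), of which 71.7% lay nearer to 0, against 61.7% of all genes tested.

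**Figure D2:**
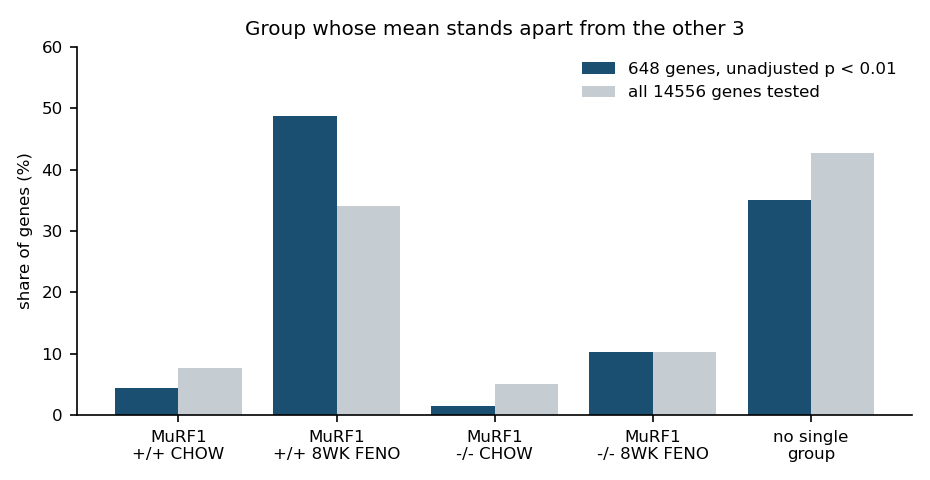
Bars give the share of genes, in percent, for which each group's mean stood apart from the other 3 means. Blue bars are the 648 genes at an unadjusted p under 0.01 and grey bars all 14556 genes tested. MuRF1 +/+ 8WK FENO has 48.8% of the first set and 34.1% of the second, and MuRF1 -/- 8WK FENO 10.3% of each.

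Arhgef19, on chromosome 4, encodes a guanine nucleotide exchange factor, and its difference came from the MuRF1 +/+ CHOW hearts. They read 0.76, 0.59 and 0.83, all well above background. The MuRF1 +/+ 8WK FENO hearts read 0.12, -0.096 and 0.092, the MuRF1 -/- CHOW hearts -0.036, 0.011 and -0.018 and the MuRF1 -/- 8WK FENO hearts -0.0076, 0.0028 and 0.046. None of these 9 hearts was well above background. The 3 MuRF1 +/+ CHOW hearts were thus the only high ones of the 12, with no overlap. Without them Arhgef19 would not have met the filter of 3 or more arrays. Its place among the tested genes thus rests on the group where it was high. The other 9 hearts lay near the floor, and their spread enters the SE. The MuRF1 -/- response compares groups without signal well above background. Arhgef19 fell in MuRF1 +/+ hearts by 0.69 (adjusted p = 3.97e-05) and was lower in MuRF1 -/- than in MuRF1 +/+ hearts on chow by 0.74 (adjusted p = 7.53e-05). The difference of the responses was 0.72 ± 0.11 (estimate ± SE; adjusted p = 0.0388), with a MuRF1 -/- response of 0.028. Since the other groups give only a bound, MuRF1 +/+ CHOW was at least 1.49-fold above MuRF1 +/+ 8WK FENO and at least 1.56-fold above MuRF1 -/- CHOW, taking the lowest signal well above background as the floor. After 3 weeks of fenofibrate the transcript was well above background in 2 of 4 MuRF1 +/+ hearts, at a mean of 0.12 ± 0.11 (SD), and in 0 of 4 MuRF1 -/- hearts, at -0.073 ± 0.089 (SD). Arhgef19 passed the adjusted threshold in 13 of the 25 alternative settings that tested it. It missed it in 7 of the 12 fits that left out 1 heart (adjusted p from 0.0742 to 0.204): without MuRF1 +/+ CHOW replicates 1 or 3, MuRF1 +/+ 8WK FENO replicate 2, MuRF1 -/- CHOW replicates 1 or 3, or MuRF1 -/- 8WK FENO replicates 1 or 3. It also missed it with the mean of Ddx3y and Eif2s3y as a covariate (the Y-linked covariate; 0.320), with the slide as a block (0.337), with Agilent's log ratio (0.16) and with only the 12 arrays in the fit (0.0686). In that last fit another transcript, ENSMUST00000066907, passed in its place, with a difference of 1.52 (adjusted p = 0.000266) and MuRF1 -/- 8WK FENO apart. The Arhgef19 estimate stayed between 0.65 and 0.78 when 1 heart was left out. It was 1.30 (adjusted p = 0.0258) with the authors' series matrix and 2.71 with Agilent's log ratio. Slides were told apart by the scan date of the arrays. Within slides that held both groups, MuRF1 +/+ 8WK FENO was below MuRF1 +/+ CHOW by 0.92 and 0.48. MuRF1 -/- CHOW was below MuRF1 +/+ CHOW by 0.84 and 0.80. Arhgef19 lies 86 tested genes away from Trim63, on the same chromosome. Of the 777 genes tested on chromosome 4, 35 (4.50%) had an unadjusted p under 0.01, and of the 201 within 100 tested genes of Trim63, 8 (3.98%), against 4.81% of all tested genes with a RefSeq symbol.

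The genes that follow next in order of p did not pass after adjustment, and are described by the values of their hearts. Among the 12 with a higher response in MuRF1 -/- hearts, MuRF1 +/+ 8WK FENO stood apart for 7, in each case as the lowest group. Efnb3 encodes ephrin B3, a membrane ligand of Eph receptors. It read 1.5, 1.48 and 1.51 in MuRF1 +/+ CHOW and 0.44, -0.056 and 0.21 in MuRF1 +/+ 8WK FENO, with 0.61, 1.44 and 1.33 in MuRF1 -/- CHOW and 1.37, 1.18 and 1.52 in MuRF1 -/- 8WK FENO. The 3 MuRF1 +/+ 8WK FENO hearts were the lowest of the 12. Efnb3 fell in MuRF1 +/+ hearts by 1.30 (adjusted p = 0.000342), and after 8 weeks it was higher in MuRF1 -/- than in MuRF1 +/+ hearts by 1.16 (adjusted p = 0.0114). The difference of the responses was 1.53 ± 0.26 (adjusted p = 0.11) and ran from 1.27 to 1.69 when 1 heart was left out.

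Mapk10, the JNK3 stress kinase, read 0.90, 0.92 and 1.23 in MuRF1 +/+ CHOW and 0.27, 0.29 and 0.33 in MuRF1 +/+ 8WK FENO. It read 0.60, 0.85 and 0.99 in MuRF1 -/- CHOW and 0.90, 0.76 and 1.0 in MuRF1 -/- 8WK FENO. Again the MuRF1 +/+ 8WK FENO hearts, close to each other, were the 3 lowest. Mapk10 fell by 0.72 in MuRF1 +/+ hearts (adjusted p = 0.000669) and was higher in MuRF1 -/- hearts after 8 weeks by 0.59 (adjusted p = 0.0476). The difference was 0.79 ± 0.16 (adjusted p = 0.15) for its brightest probe and 0.29 ± 0.11 for its other probe. Cpped1, a phosphatase that acts on the kinase AKT, read 1.09, 1.10 and 1.09, then 0.47, 0.34 and 0.43 in the MuRF1 +/+ groups, and 0.92, 0.95 and 0.97, then 0.75, 0.78 and 0.84 in the MuRF1 -/- groups. The hearts of each group were close together here and the 4 groups did not overlap. Cpped1 fell by 0.68 in MuRF1 +/+ hearts (adjusted p = 4.33e-05), against -0.16 in MuRF1 -/- hearts (adjusted p = 0.421), a difference of 0.52 ± 0.11 (adjusted p = 0.161).

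MuRF1 +/+ 8WK FENO also stood apart for Gpt (alanine aminotransferase), Slc46a3 (a lysosomal transporter), Zdhhc8 (a palmitoyltransferase) and Klc4 (a kinesin light chain). Gpt read 1.24, 1.04 and 1.32 in MuRF1 +/+ CHOW and 0.43, 0.27 and 0.57 in MuRF1 +/+ 8WK FENO, with 0.41, 1.16 and 0.97 and 1.20, 0.98 and 1.24 in the MuRF1 -/- groups. The MuRF1 -/- CHOW replicate 1 overlapped the MuRF1 +/+ 8WK FENO hearts. All 4 fell in MuRF1 +/+ hearts, with responses of -0.77, -0.64, -0.63 and -0.82 (adjusted p from 0.000525 to 0.00369). Their differences were 1.07 ± 0.22, 0.87 ± 0.16, 0.62 ± 0.13 and 0.84 ± 0.18 in that order, the last from 2 MuRF1 -/- 8WK FENO hearts because 1 spot was missing. A second probe of Zdhhc8 gave -0.27 ± 0.13, so its probes disagreed. Mrpl1 and Tomm40, a mitochondrial ribosomal protein and the pore of the mitochondrial import complex, were among the next genes of this kind, with differences of 0.74 ± 0.17 and 0.80 ± 0.20. They were picked out after their values had been seen. In Ttc38, Gstz1 and Mios no single group stood apart. Mios, a subunit of the GATOR2 complex upstream of mTORC1, rose in MuRF1 -/- hearts by 0.65 (adjusted p = 0.0134), with 0.087, 0.055 and 0.15 on chow and 0.73, 0.71 and 0.80 after fenofibrate and no overlap. Its MuRF1 +/+ response was -0.18 (adjusted p = 0.327) and its difference 0.83 ± 0.18.

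Of the 12 leading genes with a lower response in MuRF1 -/- hearts, MuRF1 +/+ 8WK FENO stood apart for 2, MuRF1 -/- CHOW for 2 and no single group for 8. Sh3bp5, which binds and inhibits JNK at mitochondria, rose by 0.70 in MuRF1 +/+ hearts (adjusted p = 0.000615), from -0.89, -0.89 and -1.0 to -0.26, -0.32 and -0.12. It read -0.52, -0.85 and -0.82 and -0.78, -0.63 and -0.67 in the MuRF1 -/- groups, all below the MuRF1 +/+ 8WK FENO hearts. The difference was -0.66 ± 0.15, but its other probe gave 0.058 ± 0.16. Cyp4b1, a cytochrome P450, rose by 0.99 in MuRF1 +/+ hearts (adjusted p = 0.00133) and had a difference of -1.0 ± 0.24. Ctsl, the lysosomal protease cathepsin L, rose by 1.33 in MuRF1 +/+ hearts (adjusted p = 5.09e-05), from -1.84, -1.83 and -1.90 to -0.12, -0.66 and -0.79. In MuRF1 -/- hearts it read -1.44, -1.62 and -1.71 and -1.30, -0.89 and -1.25, a response of 0.44 (adjusted p = 0.169). The difference was -0.89 ± 0.22, and the related protease Ctsh had one of -1.07 ± 0.25, or of -0.63 with the Y-linked covariate.

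Fbln1, fibulin 1 of the extracellular matrix, had the largest negative difference of the genes named by rule, at -1.94 ± 0.37 (adjusted p = 0.15), and its responses pointed in opposite directions. The MuRF1 +/+ CHOW hearts read 0.21, 0.21 and 0.16 and the MuRF1 +/+ 8WK FENO hearts 0.80, 1.64 and 0.99, a rise of 0.95 (adjusted p = 0.0223). The MuRF1 -/- CHOW hearts read 1.48, 0.21 and 0.62 and the MuRF1 -/- 8WK FENO hearts -0.20, 0.15 and -0.61, a response of -0.99 (adjusted p = 0.0596). The chow hearts of MuRF1 -/- mice ranged from the level of MuRF1 +/+ chow hearts to that of MuRF1 +/+ hearts on fenofibrate. After 8 weeks the genotypes did not overlap. A second probe gave -1.81 ± 0.37, and without MuRF1 +/+ 8WK FENO replicate 2 the difference was -1.69. Aif1, a macrophage calcium-binding protein, fell in MuRF1 -/- hearts by 0.89 (adjusted p = 0.000162), from 0.99, 0.69 and 0.71 to -0.16, -0.084 and -0.034. Its difference was -0.59 ± 0.14, but a second probe gave 0.080 ± 0.11.

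**Figure D3:**
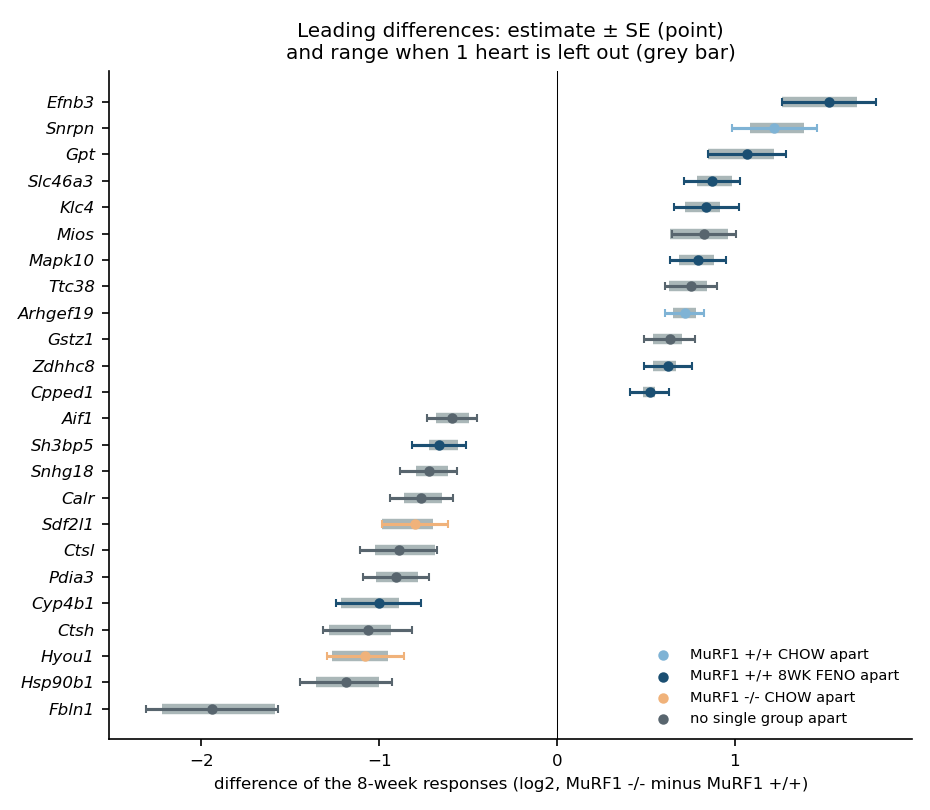
The 24 genes with the smallest p for the difference of responses, 12 higher and 12 lower in MuRF1 -/- hearts. Points and bars give the estimate ± SE on the log2 scale, grey bars the range when 1 of the 12 hearts was left out, and colours the group that stood apart. None of the grey bars reaches 0, and Efnb3 and Fbln1 lie furthest out.

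**Figure D4:**
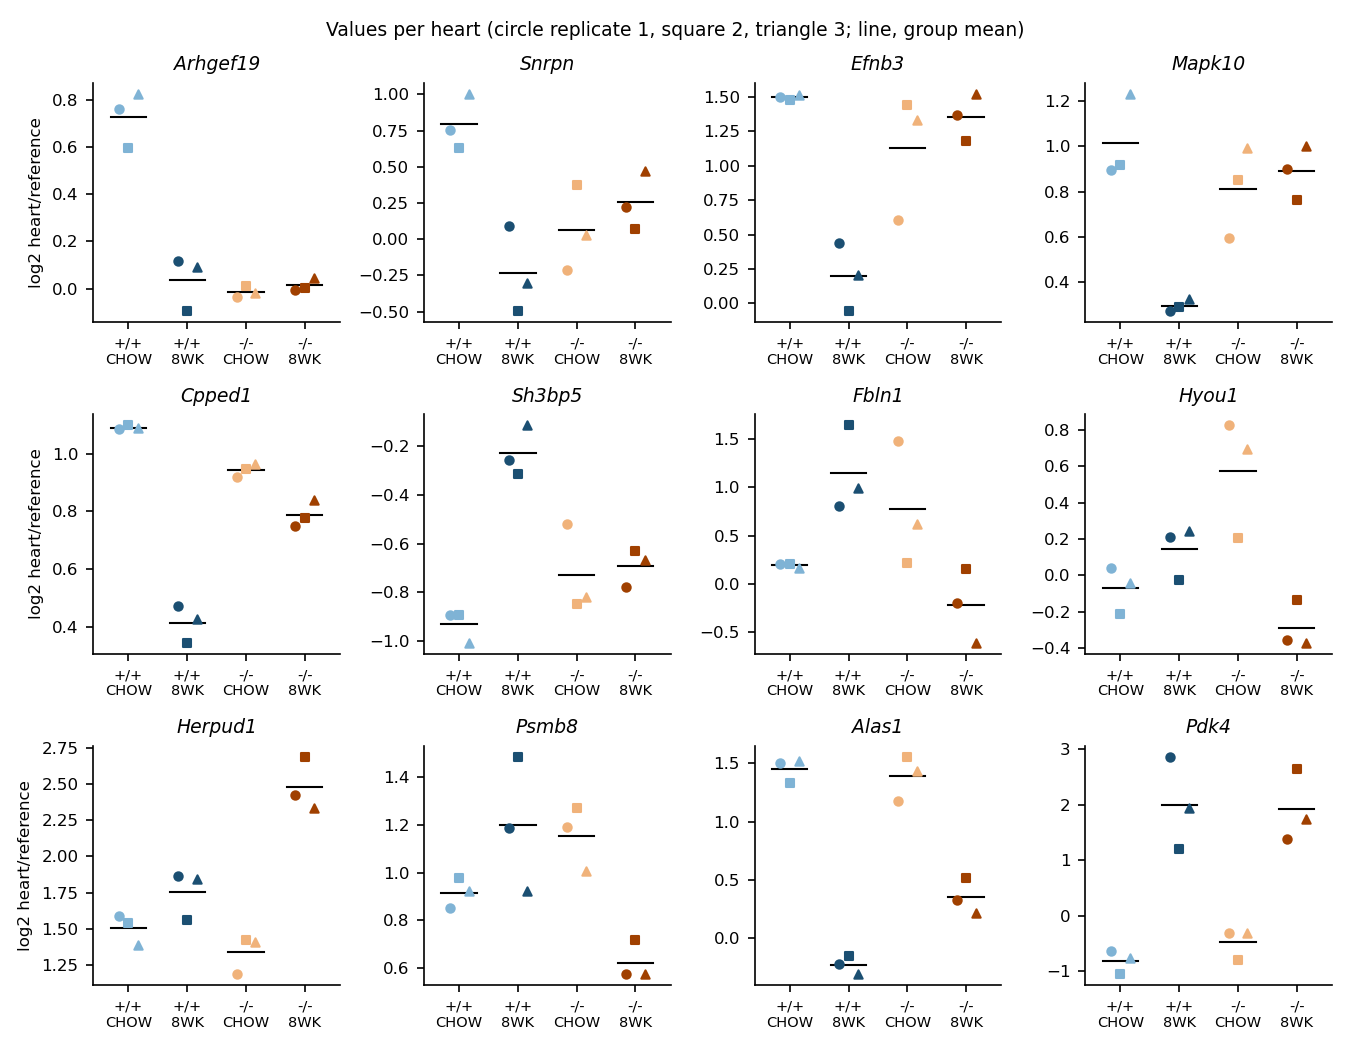
Log2 heart/reference ratios of 12 genes in each heart, with circles, squares and triangles for replicates 1, 2 and 3 and a line at the group mean. Arhgef19 is high only in MuRF1 +/+ CHOW, Efnb3, Mapk10 and Cpped1 are lowest in MuRF1 +/+ 8WK FENO, Herpud1 is highest in MuRF1 -/- 8WK FENO, and Pdk4 rises in both genotypes.

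Chaperones and folding enzymes of the endoplasmic reticulum (ER) took 5 of the 12 places among the leading lower genes: Hyou1, Pdia3, Hsp90b1, Calr and Sdf2l1. The ER folds secreted and membrane proteins, and when unfolded protein builds up, the sensor ATF6 travels to the nucleus. With the factor NF-Y it binds the ER stress response element, spelled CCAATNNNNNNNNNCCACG, before genes of this kind. Because these genes stood out, a list of 21 ER folding genes was drawn up after the values had been seen, so its counts only describe the data. In RefSeq promoters of GRCm38.p6 (250 bases before the start, both strands, 27025 genes), that element occurred in 35 genes (0.13%). Among the tested genes with a promoter it occurred in 14 of 9887 (0.142%), and in the ER list in 8 of 19 (42.1%). No other motif was searched, and a match describes the letters only. The list was made of the kind of genes this element is described for, so its share is not a result about these hearts. The stretches that hold it are shown because the genes share it; they run 5′ to 3′ in the direction of the gene, and the capitals mark the fixed letters of the element or of its reverse complement.
Calr, chr8:84847055-84847113, minus strand: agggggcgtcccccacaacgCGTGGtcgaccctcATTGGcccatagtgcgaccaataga
Canx, chr11:50325780-50325838, minus strand: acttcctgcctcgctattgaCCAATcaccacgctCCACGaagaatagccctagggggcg
Creld2, chr15:88819500-88819558, plus strand: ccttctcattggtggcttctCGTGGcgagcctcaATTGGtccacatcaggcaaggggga
Dnajc3, chr14:118937807-118937865, plus strand: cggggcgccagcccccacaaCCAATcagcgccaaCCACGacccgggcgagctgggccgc
Hsp90b1, chr10:86705618-86705676, minus strand: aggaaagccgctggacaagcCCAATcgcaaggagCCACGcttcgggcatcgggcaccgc
Hsp90b1, chr10:86705513-86705571, minus strand: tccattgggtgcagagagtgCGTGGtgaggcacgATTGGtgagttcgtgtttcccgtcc
Hspa5, chr2:34772005-34772063, plus strand: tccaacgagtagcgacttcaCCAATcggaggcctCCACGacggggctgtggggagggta
Pdia6, chr12:17266471-17266529, plus strand: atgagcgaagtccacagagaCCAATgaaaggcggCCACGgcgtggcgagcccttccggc
Syvn1, chr19:6046512-6046570, plus strand: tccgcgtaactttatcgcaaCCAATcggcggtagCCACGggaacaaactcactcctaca
Hsp90b1 holds 2 copies.

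Hspa5 encodes BiP, the main ER chaperone, Hsp90b1 encodes GRP94, Calr and Canx the lectin chaperones calreticulin and calnexin, Dnajc3 a cochaperone of BiP, Pdia6 a disulfide isomerase and Syvn1 a ligase that degrades misfolded proteins. Creld2 encodes a secreted ER stress protein. All 8 genes of the list with the element had a negative difference: Calr -0.76, Canx -0.39, Creld2 -0.71, Dnajc3 -0.62, Hsp90b1 -1.19, Hspa5 -0.81 (from 2 MuRF1 -/- 8WK FENO hearts), Pdia6 -0.69 and Syvn1 -0.39. At an unadjusted p under 0.05 were 7 of them, the exception being Canx (limma, unadjusted p = 0.0696). A negative difference was also found for 18 of the 21 listed genes, with or without the element, and for 8045 of the 14556 genes tested. Of the leading genes, Hyou1, Pdia3 and Sdf2l1 gave no match to the element. Differences of tested genes outside the list that hold the element are not given here. Over the 21 listed genes the median difference was -0.62, against -0.034 for all genes tested. At an unadjusted p under 0.05, 15 were lower and 1, Herpud1, higher, against 8.03% and 8.77% of all genes. None passed after adjustment.

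The list's mean lay on opposite sides of chow in the 2 genotypes. It was -0.42, -0.40 and -0.49 in MuRF1 +/+ CHOW and -0.14, -0.27 and -0.18 in MuRF1 +/+ 8WK FENO. It was 0.0081, -0.32 and -0.15 in MuRF1 -/- CHOW and -0.40, -0.36 and -0.42 in MuRF1 -/- 8WK FENO. Fenofibrate hearts lay above chow hearts in MuRF1 +/+ mice and below them in MuRF1 -/- mice, without overlap in either. MuRF1 -/- CHOW replicate 1 was the highest heart of all, while replicate 2 of that group lay close to the fenofibrate hearts of its genotype. The median response was 0.21 in MuRF1 +/+ and -0.28 in MuRF1 -/- hearts, and the median gap between genotypes 0.32 on chow and -0.27 after 8 weeks. Hyou1, a large BiP relative, read 0.038, -0.21 and -0.045 and 0.21, -0.027 and 0.25 in the MuRF1 +/+ groups, and 0.83, 0.20 and 0.69 and -0.36, -0.14 and -0.37 in the MuRF1 -/- groups. It fell in MuRF1 -/- hearts by 0.86 (adjusted p = 0.00601), while the MuRF1 +/+ response was 0.22 (adjusted p = 0.324) and the difference -1.08 ± 0.22. Sdf2l1 and Calr also fell in MuRF1 -/- hearts, by 0.62 and 0.55 (adjusted p = 0.0191 and 0.0287), although a second probe of Calr gave a difference of -0.17 ± 0.13. Pdia3, an isomerase of glycoproteins, rose in MuRF1 +/+ hearts by 0.40 (adjusted p = 0.047), as did Dnajc3 by 0.72 (adjusted p = 0.00516). Hsp90b1 read -0.73, -0.84 and -0.94 and -0.53, 0.064 and -0.47, then 0.023, -0.65 and -0.31 and -1.10, -0.78 and -1.03. Its difference was -1.19 ± 0.26, and -1.11 ± 0.21 by its other probe. Xbp1, Dnajb9, Sel1l and P4hb of the same list had differences of -0.15, -0.052, 0.15 and 0.0029. Without MuRF1 +/+ 8WK FENO replicate 2 the list's median was -0.50 with 15 genes lower, and over the other normalizations and scalings tried it ran from -0.67 to -0.50. How far the median leaned on MuRF1 -/- CHOW replicate 1, the highest heart, or moved with the Y-linked covariate is not given here.

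Herpud1, an ER membrane protein that serves the degradation of misfolded proteins, went the other way. It read 1.59, 1.54 and 1.39 in MuRF1 +/+ CHOW, 1.86, 1.56 and 1.84 in MuRF1 +/+ 8WK FENO and 1.19, 1.42 and 1.41 in MuRF1 -/- CHOW. In MuRF1 -/- 8WK FENO it read 2.42, 2.69 and 2.33, above the other 9 hearts. Herpud1 rose in MuRF1 -/- hearts by 1.14 (adjusted p = 0.000718), the MuRF1 +/+ response was 0.25 (adjusted p = 0.27) and the difference 0.89 ± 0.22 (adjusted p = 0.215).

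MuRF1 -/- 8WK FENO also stood apart for genes of the immunoproteasome, the form of the proteasome that makes peptides for antigen presentation. Psmb8 read 0.85, 0.98 and 0.92 in MuRF1 +/+ CHOW, 1.19, 1.48 and 0.92 in MuRF1 +/+ 8WK FENO and 1.19, 1.27 and 1.01 in MuRF1 -/- CHOW, but 0.57, 0.72 and 0.58 in MuRF1 -/- 8WK FENO. Psmb9 read 0.24, 0.59 and 0.39 there, against 1.01, 1.21 and 1.04 on chow. The 3 hearts of this group were the lowest of the 12 for both genes. Psmb9 fell in MuRF1 -/- hearts by 0.68 (adjusted p = 0.0331), and Psmb8 had a response of -0.53 (adjusted p = 0.0633). Their differences were -0.82 ± 0.20 and -0.78 ± 0.23, and a second probe of Psmb8 gave -0.80 ± 0.21. With the Y-linked covariate they were -0.54 and -0.47. S100a4, a calcium-binding protein of fibroblasts and leukocytes, fell by 1.14 (adjusted p = 0.0152), and Ptpn18, a tyrosine phosphatase, by 0.78 (adjusted p = 0.0245). Tor1aip1, a protein of the inner nuclear membrane, and Selenoo, a mitochondrial selenoprotein, rose by 0.45 and 0.34 (adjusted p = 0.0204 and 0.0407). The differences of these 4 were -1.29 ± 0.32, -0.99 ± 0.24, 0.59 ± 0.14 and 0.41 ± 0.12. They were named after their values had been seen.

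Few genes were carried by a chow group. Besides Arhgef19, MuRF1 +/+ CHOW stood apart for Snrpn, whose product is a core protein of the splicing machinery and which is expressed from the paternal allele. Snrpn read 0.76, 0.63 and 1.0 in MuRF1 +/+ CHOW and 0.093, -0.50 and -0.30 in MuRF1 +/+ 8WK FENO, with -0.21, 0.37 and 0.027 and 0.22, 0.072 and 0.47 in the MuRF1 -/- groups. It fell in MuRF1 +/+ hearts by 1.03 (adjusted p = 0.000949), and its difference was 1.22 ± 0.24, or 1.08 ± 0.20 by its other probe. Snurf, read from the same locus, had a difference of 0.77 ± 0.19. For Snrpn the lower level of the chow hearts of MuRF1 -/- mice did not pass adjustment (adjusted p = 0.24). In Helt, a transcription factor of the Hes family, it did, at -0.58 (adjusted p = 0.0429), and Helt fell by 0.65 in MuRF1 +/+ hearts (adjusted p = 0.00111). Helt was well above background in 3 MuRF1 +/+ CHOW hearts. That held for 1 MuRF1 +/+ 8WK FENO, 1 MuRF1 -/- CHOW and 0 MuRF1 -/- 8WK FENO hearts, so both gaps are measured largely against the floor.

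MuRF1 -/- CHOW stood apart for Adat2, the catalytic subunit of an enzyme that edits adenosine in transfer RNA. Adat2 read -0.45, -0.40 and -0.43 there, against 0.40, 0.31 and 0.49 in MuRF1 +/+ CHOW, 0.76, 0.38 and 0.67 in MuRF1 +/+ 8WK FENO and 0.25, 0.27 and 0.39 in MuRF1 -/- 8WK FENO. The 3 MuRF1 -/- CHOW hearts were the lowest of the 12, and the gap to MuRF1 +/+ CHOW was -0.83 (adjusted p = 0.00545). Adat2 rose in MuRF1 -/- hearts by 0.73 (adjusted p = 0.00426), and its difference was 0.52 ± 0.18. Bcl6, a transcriptional repressor, read 1.09, 1.01 and 1.07 in MuRF1 -/- CHOW, 0.47, 0.67 and 0.48 in MuRF1 +/+ CHOW and 0.34, 0.43 and 0.48 in MuRF1 -/- 8WK FENO, with 0.36, 0.51 and 1.33 in MuRF1 +/+ 8WK FENO. Its difference was -0.83 ± 0.26, with 1 MuRF1 +/+ 8WK FENO heart above the MuRF1 -/- CHOW hearts. Helt, Adat2, Bcl6 and Snurf were named after their values had been seen.

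A further 6 genes, chosen with their responses known, passed the test in the same direction in both genotypes. Pdk4 rose by 2.83 in MuRF1 +/+ hearts (adjusted p = 0.000103) and by 2.40 in MuRF1 -/- hearts (adjusted p = 0.00139). Its hearts read 2.87, 1.20 and 1.95 and 1.38, 2.65 and 1.74 on fenofibrate, and -1.06 to -0.31 on chow. The difference was -0.43 ± 0.50, and -0.83 without MuRF1 +/+ 8WK FENO replicate 2. Sqstm1, the autophagy receptor p62, rose by 1.47 and 1.41 (difference -0.061 ± 0.22), and Fbxo31, a ubiquitin ligase subunit, by 0.68 and 0.66 (-0.025 ± 0.20). Acot1, an acyl-CoA thioesterase, rose by 2.62 and 1.75, a difference of -0.87 ± 0.55. It read -1.98, -1.56 and -2.28 and 1.62, -0.59 and 1.01 in the MuRF1 +/+ groups and -1.15, -1.41 and -0.73 and 0.091, 1.24 and 0.62 in the MuRF1 -/- groups, with MuRF1 +/+ 8WK FENO replicate 2 the lowest of the 6 hearts on fenofibrate. Without that heart the Acot1 difference was -1.5, and it ran from -1.5 to -0.40 when 1 heart was left out. Nmrk2, a kinase of NAD synthesis in muscle, fell by 2.59 and 2.83 (-0.24 ± 0.50), and Cyp1a1, a cytochrome P450 induced through the aryl hydrocarbon receptor, by 2.12 and 1.66 (0.46 ± 0.35). None of these differences passed adjustment, which does not show that the responses were equal.

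Alas1, the first enzyme of heme synthesis, fell in both genotypes but with a difference at an unadjusted p of 0.000855. It read 1.5, 1.33 and 1.52 and -0.22, -0.16 and -0.31 in the MuRF1 +/+ groups, and 1.17, 1.55 and 1.43 and 0.33, 0.52 and 0.21 in the MuRF1 -/- groups. On chow the genotypes overlapped, and on fenofibrate all MuRF1 -/- hearts lay above all MuRF1 +/+ hearts. The fall was 1.68 (adjusted p = 1.86e-07) against 1.03 (adjusted p = 0.000162), a difference of 0.64 ± 0.16 (adjusted p = 0.215) and of 0.79 ± 0.23 by its other probe. The metallothionein Mt1 rose in both, by 1.73 (adjusted p = 3.77e-06) and 1.11 (adjusted p = 0.000897), with a difference of -0.62 ± 0.22, though its other probe gave -0.077 ± 0.12. Mt2 had a difference of -1.78 ± 0.63, with MuRF1 +/+ 8WK FENO hearts scattered at 1.67, 0.32 and -0.98. Without replicate 1 of that group, the highest, the differences were -0.37 for Mt1 and -1.12 for Mt2. The 2 metallothionein transcripts are near-identical, and their probes may not tell them apart.

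Lists of genes for muscle, metabolism and the other cell types of a heart were set beside the median difference of all genes, -0.034, with 16.8% at an unadjusted p under 0.05. Of all 14556 differences 8045 were negative and 6511 positive. In MuRF1 +/+ hearts 766 of all genes rose and 1269 fell after adjustment. In a whole heart, more cells of a type cannot be told apart from more RNA per cell. The 30 genes of extracellular matrix and fibroblasts all had negative differences, with a median of -0.57 and 13 at an unadjusted p under 0.05. Col4a1, a basement membrane collagen, had -1.04 ± 0.30 and rose in MuRF1 +/+ hearts by 0.99 (adjusted p = 0.00515), from -2.64, -2.47 and -2.64 to -1.65, -1.06 and -2.06, while its MuRF1 -/- response was -0.044. Fbn1, fibrillin 1, had -0.71 ± 0.21, but -0.25 ± 0.19 by its other probe. In MuRF1 +/+ hearts 6 of the 30 rose after adjustment and 0 fell, and in MuRF1 -/- hearts 0 did either. The 22 endothelial markers were likewise all negative (median -0.63, 8 at an unadjusted p under 0.05), and 9 of them rose in MuRF1 +/+ hearts. Cdh5, the cadherin of endothelial junctions, had -1.55 ± 0.45 and Cav1, caveolin 1, -1.53 ± 0.40, although their second probes gave -0.31 ± 0.17 and -0.24 ± 0.14.

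These lists leaned on MuRF1 +/+ 8WK FENO replicate 2. Cdh5 read 0.72, 2.65 and 1.18 in that group and 0.12 to 0.95 in the other 9 hearts. The endothelial mean was 0.59, 1.83 and 0.64 in MuRF1 +/+ 8WK FENO and 0.31 to 0.46 in the other 3 groups. So all 3 hearts were above the rest, replicate 2 by far. Without replicate 2 the endothelial median was -0.19, with 17 of 22 negative and 6 at an unadjusted p under 0.05, against 9.75% of all genes, and Cdh5 gave -0.98 and Cav1 -1.02. The matrix mean was -1.79, -1.21 and -1.71 in MuRF1 +/+ 8WK FENO and -2.19 to -1.70 in the other 9 hearts, so that here the first and the third of these hearts overlapped MuRF1 -/- CHOW replicate 1. Its median without replicate 2 was -0.33, with 28 of 30 negative and 10 at an unadjusted p under 0.05. Smooth muscle and pericyte markers (15 genes, median -0.62, 8 lower and 3 higher) were low in MuRF1 -/- 8WK FENO, at -0.55, -0.53 and -0.65 on average, against -0.44 to 0.21 in the other 9 hearts. Their median without replicate 2 was -0.31. Myl9, a smooth muscle myosin light chain, had -1.74 ± 0.56, and -1.11 without it. The adipocyte list had 13 of 13 negative (median -0.30), and 10 of 13 without replicate 2 (median -0.12). The medians of these 4 lists kept their sign in the 26 alternative settings.

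**Figure D5:**
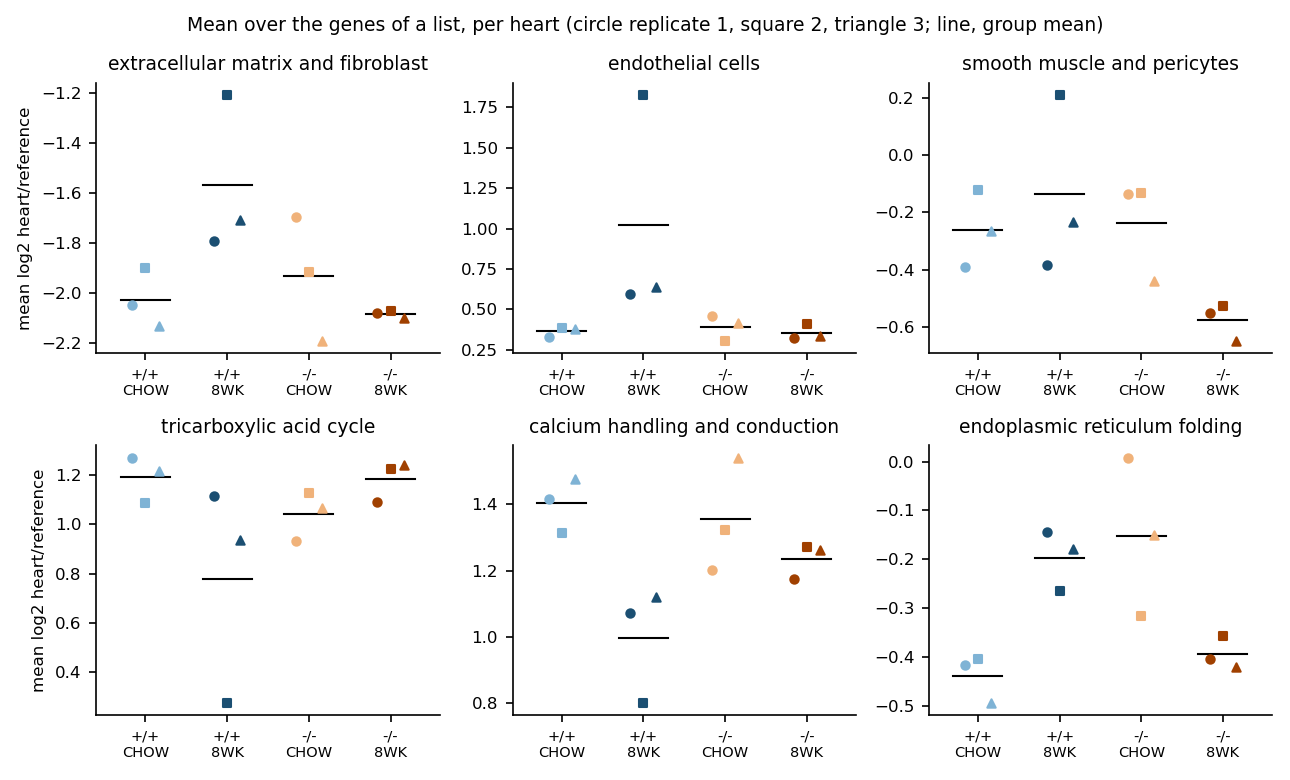
Mean log2 heart/reference ratio of 6 gene lists in each heart, with circles, squares and triangles for replicates 1, 2 and 3 and a line at the group mean. MuRF1 +/+ 8WK FENO replicate 2 is the highest heart for the matrix, endothelial and smooth muscle lists and the lowest for the tricarboxylic acid cycle.

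Enzymes of the tricarboxylic acid cycle, which oxidizes acetyl-CoA in mitochondria, went the other way, with 14 of 16 differences positive, a median of 0.65 and 6 at an unadjusted p under 0.05. Dlst and Ogdh, 2 subunits of the oxoglutarate dehydrogenase complex, had 0.76 ± 0.19 and 1.14 ± 0.32. Both fell in MuRF1 +/+ hearts, with responses of -0.62 and -0.89 (adjusted p = 0.00611 and 0.0146), and had 0.14 and 0.25 in MuRF1 -/- hearts. The 2 other probes of Dlst gave 1.67 ± 0.45 and -0.35 ± 0.20. The mean of the list was 1.12, 0.27 and 0.94 in MuRF1 +/+ 8WK FENO and 0.93 to 1.27 in the other 9 hearts. Replicate 2 was the low one, and without it the median was 0.32 with 3 genes at an unadjusted p under 0.05. Calcium handling and conduction genes had 18 of 24 positive (median 0.36, and 0.26 without replicate 2), with 5 higher and 1 lower. All 3 MuRF1 +/+ 8WK FENO hearts were below the other 9 in the mean of this list, at 1.07, 0.80 and 1.12 against 1.17 to 1.54. Asph, which includes the calcium store protein junctin, fell in MuRF1 +/+ hearts by 0.92 (adjusted p = 0.0059) and had 0.83 ± 0.28. Of its other 3 probes, the differences ran from 0.032 to 0.78.

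Of the genes activated by PPAR alpha, 17 of 33 had a positive difference and 16 a negative one, with a median of 0.053 and 3 on each side at an unadjusted p under 0.05. That balance depended on the setting, and so did the number of all genes called. The shares of all genes called in these settings are not set beside the counts, so nothing is read from those counts. The authors' series matrix gave a median of 0.41, with 9 higher and 1 lower, and the Y-linked covariate 0.25, with 6 higher and 1 lower. Without MuRF1 +/+ 8WK FENO replicate 2 the median was 0.010, with 1 higher and 6 lower. The median changed sign in 5 of 26 alternative settings. In MuRF1 +/+ hearts 6 of the 33 rose and 1 fell, and in MuRF1 -/- hearts 2, Pdk4 and Acot1, rose. Cd36, the fatty acid transporter, read 2.12, 2.20 and 2.24 and 2.71, 3.53 and 3.01, then 2.76, 2.18 and 2.81 and 2.51, 2.89 and 2.51. It rose in MuRF1 +/+ hearts by 0.90 (adjusted p = 0.00833), with 0.055 in MuRF1 -/- hearts and a difference of -0.84 ± 0.29. The other probe of Cd36 gave -0.37 ± 0.17. Cpt1a had -0.35 ± 0.12, or -0.22 with the Y-linked covariate, and 0.064 ± 0.11 by its other probe. Acaa2, which cleaves the last bond of each round of beta-oxidation, had 0.69 ± 0.27.

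Medians of other lists of heart function were nearer to 0 here, but not with the authors' series matrix. That matrix also called more of all genes at an unadjusted p under 0.01. Its share of all genes at an unadjusted p under 0.05 is not given here, so nothing is read from its counts below. Respiratory chain and ATP synthase genes had a median of 0.084 (5 of 27 higher and 2 lower at an unadjusted p under 0.05), which turned negative in 4 of 26 settings but was 0.76 with the series matrix (13 higher, 0 lower). Glycolysis had 0.10 (6 of 25 higher, 1 lower), and 0.52 with the series matrix (12 higher, 1 lower). The list of ubiquitin ligases, proteasome and autophagy had -0.011 (6 of 32 higher, 4 lower), a median with 12 sign changes. Sarcomere genes had -0.14 (3 of 28 higher, 1 lower), and 0.51 with the series matrix, where 23 of 28 were positive. All genes tested had a median of -0.021 with that matrix. Within that list Actc1, cardiac actin, fell in MuRF1 +/+ hearts by 1.64 (adjusted p = 0.000111), from 2.08, 1.98 and 2.17 to 0.56, 0.40 and 0.35, all 3 below the other 9 hearts. It read 1.94, 2.11 and 1.60 and 1.65, 0.89 and 1.58 in the MuRF1 -/- groups, a difference of 1.13 ± 0.30. The MuRF1 relatives Trim55 and Trim54, MuRF2 and MuRF3, had -0.96 ± 0.32 and -0.71 ± 0.34. Both rose in MuRF1 +/+ hearts (adjusted p = 0.0393 and 0.0327), with MuRF1 +/+ 8WK FENO replicate 2 highest of the 12 at 0.31 and 4.05. Without it they gave -0.55 and -0.32. For hypertrophy and fetal genes the median was -0.31, with 1 of 22 higher and 2 lower. Nppa and Nppb, the natriuretic peptides, had 0.28 ± 0.30 and -0.50 ± 0.58. Their other probes gave 1.03 ± 0.42 (limma, unadjusted p = 0.0248) and -0.14 ± 0.73, so the probes of Nppa differed. Myh7, the slow myosin, rose in MuRF1 +/+ hearts by 1.70 (adjusted p = 0.0166). Its difference was -0.68 ± 0.62, or -1.18 without MuRF1 +/+ 8WK FENO replicate 2.

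The Y-linked genes themselves differed. Eif2s3y was at least 5.11-fold, and Ddx3y at least 4.17-fold, higher in MuRF1 +/+ CHOW than in MuRF1 +/+ 8WK FENO, and their differences were 1.81 ± 0.59 and 1.27 ± 0.52. Without MuRF1 -/- 8WK FENO replicate 2 both passed adjustment, at 2.59 (adjusted p = 0.00484) and 1.96 (adjusted p = 0.0196). Xist, the RNA that silences an X chromosome in female cells, read -4.06, -3.87 and -4.24 in MuRF1 +/+ CHOW and -2.70, -0.90 and -2.04 in MuRF1 +/+ 8WK FENO, with -3.49, -3.92 and -4.13 and -3.51, -2.72 and -4.05 in the MuRF1 -/- groups. It was higher in MuRF1 +/+ 8WK FENO than in MuRF1 +/+ CHOW hearts by 2.18 (limma, adjusted p = 0.00069). Whether fenofibrate enters this gap or those of the Y-linked genes cannot be told in MuRF1 +/+ hearts. The MuRF1 -/- 8WK FENO heart without Y-linked signal above background, replicate 2, was the highest of its group. The difference for Xist was -1.76 ± 0.48 (adjusted p = 0.215), or -1.26 without MuRF1 +/+ 8WK FENO replicate 2, and its other 2 probes gave -0.46 and -1.10. For the leading genes the MuRF1 -/- 8WK FENO heart that also lacked these transcripts, replicate 2, could be set against the 3 MuRF1 +/+ 8WK FENO hearts. It differed from their mean in the direction of the full 8-week gap for 23 of the 23 leading genes other than Arhgef19, and lay outside their range for 21, the exceptions being Snrpn and Ctsh. This heart is 1 of those that chose the leading genes, so the count is a description. It was higher by 0.98 for Efnb3 and by 0.47 for Mapk10, and differed by -0.99 for Fbln1. With the mean of Ddx3y and Eif2s3y as a covariate, 375 genes had an unadjusted p under 0.01 for the difference and 0 passed adjustment.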

How the data were processed

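RNA from single hearts (Cy5) and a pool of newborn pups (Cy3) was hybridised together on 2-colour Agilent arrays of design 014868. Per the file headers, the scanner files hold spot intensity values from Feature Extraction 9.5.3.1, not normalized between arrays, together with flags for spots well above background and Agilent's own log10 ratio. The authors' deposited series matrix holds log2 ratios, whose normalization the sources used here do not state. The extraction protocol names Cy3 for the samples, and the channel labels, which name Cy5 for the hearts, set the direction.

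The normexp method (offset 50) corrected the background, and the ratios were normalized by loess within each array in limma 3.58.1 (R 4.3.3). Spots whose local background exceeded their signal by over 50 were left out of the background fit. Control spots had weight 0 and outlier spots were set to missing. The 41174 probes were averaged over spots, and a gene took its probe of brightest heart signal. Probes were named by accession (22951), by symbol (6659) or by synonym (3109) through RefSeq (GRCm38.p6), and 8455 kept the name in the files. A gene was tested where its heart signal was well above background on 3 or more arrays.

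The fit had 6 group means over all 20 arrays, with a trend in the prior variance and Benjamini-Hochberg adjustment over all tested genes, and was tested on simulated data. Where nothing says more, p-values measure the spread between these hearts. Arrays fell into 5 sets by the scan date in their headers, which are called slides here. For some arrays the barcode in the header named another slide. None of the 5 held all 4 groups, so the difference cannot be had within a slide. The number of hearts limits the precision. Signals were compared within probes only. Genes are named by p (12 higher and 12 lower), by size (5 each way) and within 23 lists (up to 3 by p), with a set of fixed genes. The genes, lists and tests were chosen with earlier results of these data known. Alternatives were other background fits and normalizations, filters on dim probes, slide and replicate blocks, a Y-linked covariate, array weights and leaving out hearts.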

Additional observations from a re-analysis of the deposited data

Results flagged for a closer look

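Arhgef19 was the gene whose 8-week response differed between the genotypes in the test of the difference itself, at 0.72 ± 0.11 on the log2 scale (limma, adjusted p = 0.0388). All 3 MuRF1 +/+ CHOW hearts were above the other 9, and those 9 were not well above background for this probe. Without those 3 high hearts the gene would not have met the filter for testing. Groups of 3 hearts are too small for a search for single outlying samples.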

How the results depend on the processing

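Of the alternatives, 2 scalings between arrays (to equal median absolute log ratio and to equal SD) were chosen after seeing the data. Against 1 gene past adjustment (limma), there were 6 when no spot was kept out of the background fit (all spots), 8 with the series matrix, 6 without the 2 arrays that stand apart, 3 with log ratios scaled between arrays and 1726 with array weights. There were 0 with Agilent's log ratio, 0 among 9845 genes above background on all 12 arrays, 0 with the slide as a block and 0 with the Y-linked covariate, at 695, 529, 335 and 375 genes with an unadjusted p under 0.01. Against 648 genes at that p, other counts past 1.5-fold were 1004 (all spots), 1015 (series matrix), 396 (only the 12 arrays) and 2224 (array weights). Leaving out 1 heart gave 0 to 1413 genes past adjustment, 1413 without MuRF1 +/+ 8WK FENO replicate 1 and 12 without MuRF1 -/- CHOW replicate 2. It gave 221 to 2158 at an unadjusted p under 0.01, with 221 without MuRF1 -/- CHOW replicate 1, 291 without MuRF1 -/- 8WK FENO replicate 3, 322 and 363 without MuRF1 +/+ CHOW replicates 3 and 1, and 342 without MuRF1 +/+ 8WK FENO replicate 2. Of the 1413 genes, 526 were among the 648, and of the 1726, 566. The cause was not tested.

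Shares over all genes tested are not given for the settings that follow, so nothing is read from the size of each share. The share of genes for which MuRF1 +/+ 8WK FENO stood apart (48.8%) was 21.4% with all spots, 18.7% with the series matrix and 32.3% without the 2 arrays, and 27.7% to 76.0% without 1 heart. That of MuRF1 -/- 8WK FENO (10.3%) was 5.88% with all spots, 15.5% with Agilent's log ratio, 6.80% with the series matrix and 19.9% scaled between arrays (5.33% to 12.7% without 1 heart). That of MuRF1 +/+ CHOW (4.48%) was 7.47% with all spots, 2.45% with Agilent's log ratio, 2.65% above background on all 12 arrays and 1.95% scaled between arrays (1.02% to 9.67% without 1 heart). That of MuRF1 -/- CHOW (1.39%) was 2.16% with Agilent's log ratio, 2.25% with no filter, 2.16% without the 2 arrays and 0.697% scaled between arrays (0.278% to 4.35% without 1 heart).

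Of 103 named genes, 91 kept their sign in 26 alternatives, among them the 24 leading genes, each of which passed adjustment in at least 1. Those 24 were chosen by p in these same data, and array weights alone called 1726 genes, so this is no separate support. Mdh1 had -0.0049 with the heart channel alone and Ddx3y -0.17 with the Y-linked covariate, both against a positive difference. Pdk4, Nmrk2, Sqstm1, Fbxo31, Angptl4, Myh6, Myh7, Nppa, Nppb and Trim63 also changed sign in 1 or more. Of 23 lists, 14 medians kept their sign. With the replicate number as a block, 0 genes passed adjustment (Arhgef19 at 0.107) and 665 had an unadjusted p under 0.01. The numbers did not pair the hearts, since correlations of same-numbered hearts ran from -0.37 to 0.45.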

Other observations

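Values of 3 genes of the circadian clock and of sterol synthesis are given here. Tef, a clock output factor, was low in MuRF1 +/+ 8WK FENO, at 0.90, 0.88 and 1.01 against 1.33 to 1.81, and fell in MuRF1 +/+ hearts by 0.79 (adjusted p = 0.00365, limma), while its 2 other probes gave differences of 0.18 and 0.22 in place of 0.76. Fdft1, squalene synthase, had 0.73 ± 0.21 and Srebf2, the factor that activates sterol genes, -0.66 ± 0.21. MuRF1 -/- 8WK FENO stood apart in both, above the other groups for Fdft1 and below them for Srebf2, but the other 2 probes of Srebf2 gave -0.18 and 0.039.

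Immune lists leaned to lower responses in MuRF1 -/- hearts. Over all genes tested 8045 of 14556 differences were negative. Of 24 macrophage and other leukocyte markers, 21 differences were negative (median -0.34, 6 at an unadjusted p under 0.05), and of 24 interferon response genes 22 were (median -0.25, 6 at an unadjusted p under 0.05). C1qc, a complement subunit of macrophages, fell in MuRF1 -/- hearts by 0.50 (adjusted p = 0.0342, limma), to -0.0043, -0.24 and -0.30 from 0.59, 0.28 and 0.086, with a difference of -0.42 ± 0.17. Gbp3, an interferon-induced GTPase, had -0.89 ± 0.25, or -0.57 with the Y-linked covariate. Without MuRF1 +/+ 8WK FENO replicate 2 these counts were 8 and 2, and without MuRF1 -/- CHOW replicate 1 they were 0 (median -0.23) and 2 (median -0.24). The leukocyte count was 3 without MuRF1 -/- 8WK FENO replicate 2, and the interferon count 3 without MuRF1 -/- CHOW replicate 2. With the Y-linked covariate the interferon list had 0 of 24 genes at an unadjusted p under 0.05, and the leukocyte list 4 of 24. The number of all genes called also moved between these settings.

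Other lists gave medians of -0.36 for immediate early and heat shock genes (17 of 20 negative), -0.28 for cell cycle (15 of 17 negative), -0.29 for skeletal muscle (10 of 12), -0.27 for atrial tissue (6 of 9), 0.17 for the clock, -0.091 for sterol and fatty acid synthesis, -0.025 for metallothionein, heme and xenobiotic genes and 0.33 for erythroid genes (5 tested). By size alone, Arc, an immediate early gene, had the largest positive difference of the named genes, at 2.13 ± 0.61, with hearts that overlapped between groups (1.72, 0.70 and 0.088 in MuRF1 +/+ 8WK FENO and 0.35, 1.82 and 0.47 in MuRF1 -/- CHOW). Ndrg4 had 1.74 ± 0.44 for its brightest probe, the one tested, and 0.89 ± 0.13 for its other probe, which had an adjusted p of 0.0214 (limma) when all probes were fitted.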
